A study of Mus musculus with 11 samples.

Results

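The TAM receptors and the ligands that let phagocytes bind dying cells were followed here through 5 genes, Axl, Mertk, Gas6, Pros1 and Timd4. They were taken by symbol, and all 5 were found among the 24411 gene symbols of the count tables. The 11 libraries hold polyadenylated RNA of sorted brain myeloid cells labelled microglia-like, from a series on hematopoietic cell transplantation in a mouse model of Alzheimer's disease. Of these, 9 form a complete layout of 3 delivery routes by 3 cell populations with 1 library each, and are called the transplant libraries below. The routes are lumbar intrathecal (ITL), intracerebroventricular (ICV) and intravenous (IV). The populations are CD45.1 TAµ, CD45.2 µ and CD45.1 µ, where CD45.1 and CD45.2 are 2 alleles of the leukocyte surface protein CD45 that tell donor from host cells. Another library is labelled ICV, CD45.2 and PBS, and the last, CTR µ, carries no CD45 allele and no route. The labels do not expand TAµ or PBS and do not say which allele the host had. They give no age, sex, disease allele, conditioning, number of pooled animals or replicate number for any group.

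Efferocytosis is the uptake of apoptotic cells, which phagocytes recognise by phosphatidylserine on the outer face of the membrane. Gas6 and protein S, the product of Pros1, bind phosphatidylserine with a vitamin K-dependent domain and bridge it to the TAM receptor tyrosine kinases Tyro3, Axl and Mertk. Gas6 binds all of these receptors, whereas protein S binds Tyro3 and Mertk but not Axl. Timd4 encodes TIM-4, a receptor of resident macrophages that binds phosphatidylserine directly. In the mouse brain Mertk is known as the main TAM receptor of resting microglia, and Axl as one that inflamed or activated microglia gain.

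Libraries held 6090589 to 21282823 gene counts, and 10477 to 15492 genes had a count. The 2 libraries with the fewest genes were the IV one of CD45.2 µ and the ICV one of CD45.1 µ. Levels are given as CPM, which are counts scaled to the library total, of which the ribosomal precursor Rn45s took 6.98% to 25.1%. All 10 homeostatic microglia markers had counts in every library, and the myeloid receptor gene Csf1r stood at 3818 to 7824 CPM. Counts of Xist, a transcript of cells with 2 X chromosomes, were 0 in CTR µ and spanned 12.3 to 6399 CPM in the transplant libraries. Xist stood at 51.2, 429 and 12.3 CPM in the ITL, ICV and IV libraries of CD45.1 TAµ. In the same order it stood at 5391, 6399 and 4028 CPM in CD45.2 µ and at 1369, 6291 and 295 CPM in CD45.1 µ. PBS had 6118 CPM. A difference in sex between the animals thus cannot be told apart from one between the groups, CD45.1 TAµ and CD45.2 µ included. Axl, Mertk, Gas6 and Pros1 had at least 438 counts in every library, and Timd4 had any count in 5 of 11.

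**Figure D1:**
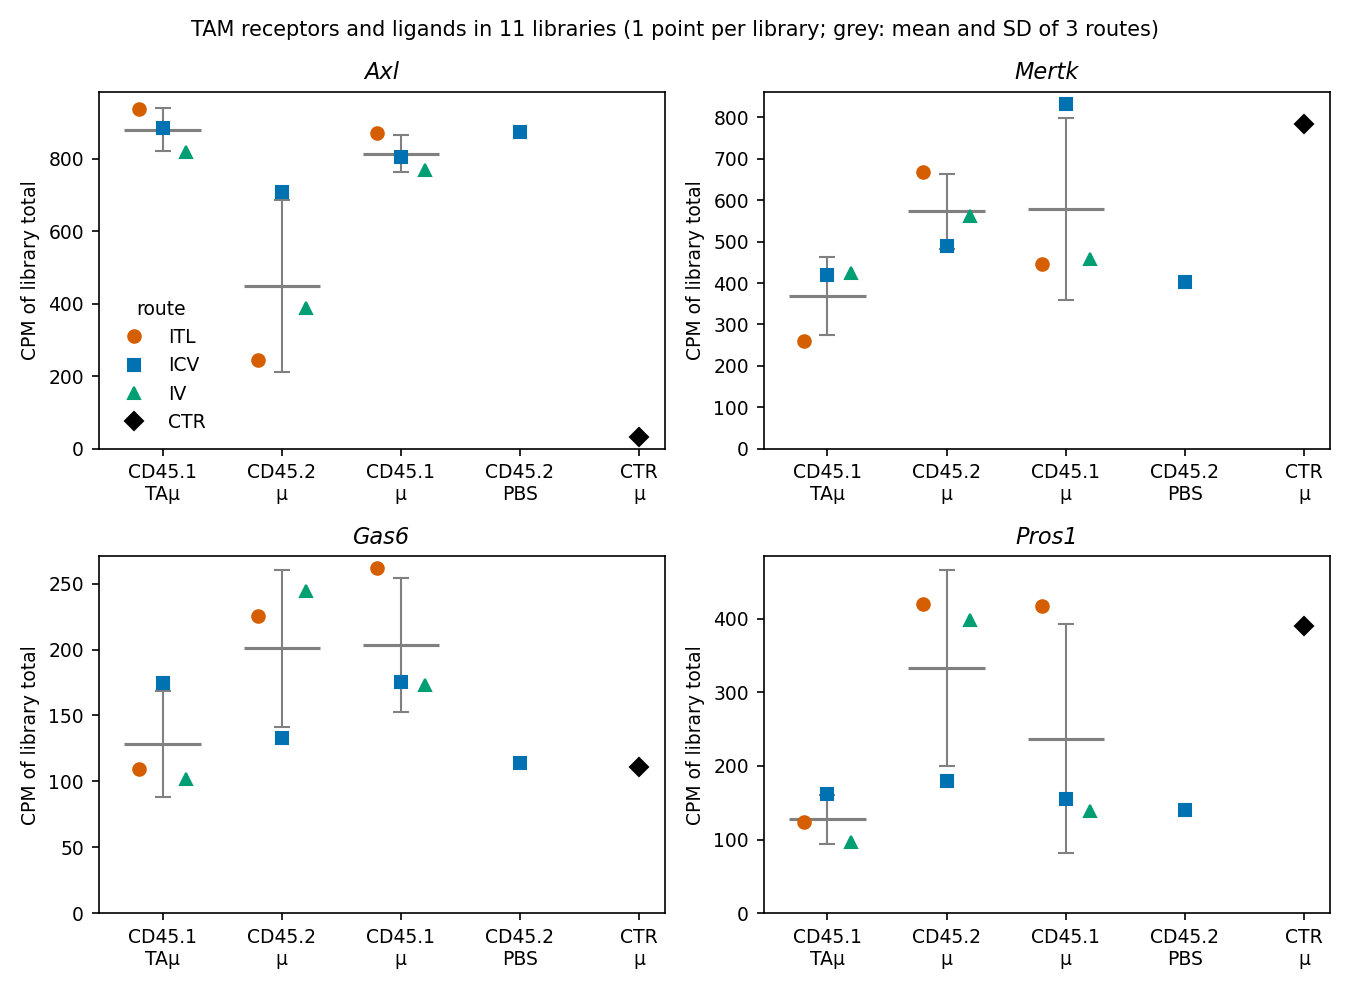
CPM of the library total for Axl, Mertk, Gas6 and Pros1, with 1 point per library, coloured by route and placed by population. Grey lines give the mean and SD of the 3 routes. Axl is at 246 to 936 CPM in the transplant libraries and at 33.5 CPM in CTR µ, whereas Mertk and Pros1 are high in CTR µ.

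Axl was the one member that differed from CTR µ beyond the spread of the libraries. It stood at 936, 885 and 819 CPM in the ITL, ICV and IV libraries of CD45.1 TAµ. In CD45.2 µ it stood at 246, 709 and 389 CPM, and in CD45.1 µ at 870, 804 and 770 CPM, in the same order of routes. All of these lay above CTR µ, whose 438 counts came to 33.5 CPM. The mean of the 9 transplant libraries was 714 ± 237 CPM (SD, n = 9), 21.3 times the CTR µ level, and the lowest of them, ITL CD45.2 µ, was still 7.35 times that level. The fitted log2 fold change of the transplant libraries against CTR µ was 4.22 ± 0.52 (SE, adjusted p = 6.20e-05 with edgeR's quasi-likelihood test). Axl was called in each of 19 alternative fits of this comparison, with log2 fold changes of 4.04 to 4.34 and adjusted p of up to 0.0179. The comparison called 1.21% of 14766 genes, 0.501% of them higher in the transplant libraries, and Axl was the 1 member called of the 5. All 9 transplant libraries lay above CTR µ for 6.31% of genes and below it for 5.63%. The CTR µ group is a single library, assumed in the fit to vary like the others. In bulk RNA, fewer cells of a type and less RNA per cell cannot be told apart.

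Few genes with at least 10 counts in CTR µ rose above it by as wide a margin in every transplant library. Genes with fewer counts there were left out, and margins below CTR µ were not ranked. Among 11929 genes with at least 10 counts in CTR µ, Axl ranked 8 by the ratio of its lowest transplant library to CTR µ. Among 3024 of them that reached at least 100 CPM in any of the 11 libraries it ranked 6. Its neighbours in that order were Apoe, the main lipid carrier of the brain, with a ratio of 7.91, Cxcr4, a chemokine receptor, with 7.68, and Ahr, the aryl hydrocarbon receptor, with 8.22. Ms4a7, a gene of macrophages that enter the brain from blood, followed Axl with 7.34. Among all 11929 genes Sorbs3 stood directly above Axl, with a ratio of 7.47. Cyp4f18 with 7.84, Slc14a1 with 8.45 and Bcar3 with 17.8 also stood above Axl. All of these genes were named after the order was seen.

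The other members had no such gap. Mertk stood at 784 CPM in CTR µ, which placed it above all but 1 of the transplant libraries, and its fitted log2 fold change in the transplant libraries was -0.81 ± 0.28 (SE, adjusted p = 0.307, edgeR). Pros1 stood at 390 CPM in CTR µ, within the range of 96.3 to 420 CPM of the transplant libraries, with a log2 fold change of -1.03 ± 0.38 (adjusted p = 0.379, edgeR). Gas6 stood at 111 CPM in CTR µ, near the lower end of its range of 102 to 262 CPM, with a log2 fold change of 0.51 ± 0.41 (adjusted p = 1, edgeR). With TMM scaling, which corrects for the makeup of a library, CTR µ had the highest level of Mertk and of Pros1 among these 10 libraries. It had the lowest level of Axl under both scalings.

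Per kilobase of the longest coding transcript, Axl had the highest median over the transplant libraries, at 188 CPM per kilobase. Mertk followed with 106, Gas6 with 68.4 and Pros1 with 49.1 CPM per kilobase, and their ranges overlapped. The order differed between libraries. Axl was the lowest of these 4 in the ITL and IV libraries of CD45.2 µ, at 57.8 and 91.3 CPM per kilobase, where Mertk had 155 and 131. In ICV CD45.1 µ Axl had 188 and Mertk 193 CPM per kilobase. In CTR µ the order was different again, with Mertk at 182, Pros1 at 118, Gas6 at 43.5 and Axl at 7.86 CPM per kilobase. Timd4 had a median of 0 in the transplant libraries.

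The promoters of the 3 receptors among the members are shown for context. All 5 members matched a RefSeq promoter window of GRCm38.p6 with 250 bases before and 50 after the gene's start, a different build from the one the reads were aligned to. The windows are Axl at chr7:25788684-25788983 on the minus strand, Mertk at chr2:128698665-128698964 on the plus strand and Timd4 at chr11:46810549-46810848 on the plus strand. Capitals mark the GC box, GGGCGG on either strand.
Axl: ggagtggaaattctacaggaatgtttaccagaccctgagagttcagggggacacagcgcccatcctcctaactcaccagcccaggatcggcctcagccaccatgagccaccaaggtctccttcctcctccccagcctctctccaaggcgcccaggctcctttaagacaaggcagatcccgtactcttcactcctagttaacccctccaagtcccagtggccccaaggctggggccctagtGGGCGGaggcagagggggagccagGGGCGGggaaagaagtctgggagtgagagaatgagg
Mertk: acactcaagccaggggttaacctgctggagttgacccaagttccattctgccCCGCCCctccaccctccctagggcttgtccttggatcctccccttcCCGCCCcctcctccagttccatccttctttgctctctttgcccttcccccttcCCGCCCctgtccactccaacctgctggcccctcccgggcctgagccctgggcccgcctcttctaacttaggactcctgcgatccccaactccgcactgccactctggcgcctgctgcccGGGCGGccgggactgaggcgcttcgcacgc
Timd4: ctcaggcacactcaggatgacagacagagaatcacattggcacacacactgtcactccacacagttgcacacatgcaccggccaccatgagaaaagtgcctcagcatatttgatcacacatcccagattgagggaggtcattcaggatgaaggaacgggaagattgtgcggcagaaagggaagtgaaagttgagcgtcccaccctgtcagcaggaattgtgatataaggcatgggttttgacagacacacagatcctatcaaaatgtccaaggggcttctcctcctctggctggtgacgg
The GC box occurred 2 times in the Axl window, 4 times in that of Mertk and 0 times in that of Timd4. The Gas6 window held 4 and the Pros1 window 5, counting overlapping matches. It occurs in 35.9% of 27025 promoter windows of this length. The share of G and C was 60.3% in Axl, 66.0% in Mertk, 58.3% in Gas6, 66.7% in Pros1 and 50.7% in Timd4, against a median of 52.7% over all windows. GCGTG, the core that the aryl hydrocarbon receptor binds, occurred once in Mertk and in no other member on either strand, and in 32.5% of all windows. The E-box CACGTG occurred in no member's window on either strand, and in 7.24% of all windows. The TATA motif TATAAA was likewise in no member's window, and in 14.2% of all windows.

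Between the populations Axl had its lowest mean in CD45.2 µ. It averaged 880 ± 58.9 CPM in CD45.1 TAµ, 448 ± 237 CPM in CD45.2 µ and 815 ± 51.2 CPM in CD45.1 µ (SD, n = 3 routes each). The low mean of CD45.2 µ came from the ITL and IV libraries, while its ICV library was close to the other populations. No member passed the threshold between populations, whose comparisons called 0.345% of 13339 genes in CD45.1 TAµ against CD45.2 µ, 0.075% in CD45.1 TAµ against CD45.1 µ and 0.03% in CD45.2 µ against CD45.1 µ. The fitted log2 fold change of Axl was 1.10 ± 0.29 in CD45.1 TAµ against CD45.2 µ (SE, unadjusted p = 0.00157, adjusted p = 0.166, edgeR). It was -0.88 ± 0.29 in CD45.2 µ against CD45.1 µ (unadjusted p = 0.00803, adjusted p = 0.485, edgeR) and 0.22 ± 0.28 in CD45.1 TAµ against CD45.1 µ (adjusted p = 0.921, edgeR).

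Within routes, the log2 ratio of Axl in CD45.1 TAµ to CD45.2 µ was positive in 3 of 3, at 0.32 to 1.93. The libraries of the populations did not overlap, as was the case in this direction for 6.29% of genes. With TMM scaling they overlapped, since ICV CD45.2 µ at 772 CPM passed IV CD45.1 TAµ at 768 CPM. The call turned on the tool and on ICV CD45.2 µ. Axl passed with DESeq2 (log2 fold change 1.11, adjusted p = 0.0101), with limma-voom with quality weights (1.47, adjusted p = 0.0229) and without ICV CD45.2 µ (1.64, adjusted p = 0.0090), among 20 alternatives with adjusted p of up to 1. In CD45.2 µ Axl was also below every library of CD45.1 µ, as were 5.64% of genes, while 4.45% lay above them all, and with TMM scaling these groups overlapped too. Axl overlapped between CD45.1 TAµ and CD45.1 µ, where 7.89% of genes were higher without overlap.

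Among markers of border-associated macrophages, the resident macrophages of meninges and vessels, Mrc1, Stab1, Pf4 and Siglec1 were lowest in CTR µ and in the ITL and IV libraries of CD45.2 µ, as was Axl. The summed level of the 10 markers was 1895 CPM in ITL CD45.2 µ, 4193 CPM in ICV CD45.2 µ and 2277 CPM in IV CD45.2 µ. It spanned 3798 to 5773 CPM in CD45.1 TAµ and 4077 to 5915 CPM in CD45.1 µ. The PBS library had 3691 CPM, and CTR µ had 882 CPM with all 10 markers above 0. In IV CD45.2 µ, 2 of the 10 were at 0. Mrc1 and Stab1 made up most of this sum, and other markers went another way. Cd163 stood at 4.73 to 16.7 CPM in CD45.1 TAµ and at 14.9 CPM in CTR µ, and Lyve1 stood at 10.9 to 20.3 CPM in CD45.1 TAµ and at 33.2 CPM in ITL CD45.2 µ. On library totals, within CD45.1 TAµ and within CD45.1 µ, the ITL library had the highest Axl and the lowest marker sum. With TMM scaling, Axl was higher in ICV CD45.1 TAµ than in ITL CD45.1 TAµ, at 1009 against 998 CPM. The marker sums of ITL and IV CD45.1 µ were close, at 4077 and 4092 CPM. Mrc1, the mannose receptor, was 1 of 3 list members that rose against CTR µ and the 1 member that rose in CD45.1 TAµ against CD45.2 µ, with log2 fold changes of 2.94 ± 0.44 (adjusted p = 0.000622, edgeR) and 1.49 ± 0.29 (adjusted p = 0.0302, edgeR). The first of these calls was made in 19 of 19 alternatives. The second was made in 10 of 20, with adjusted p of up to 0.675, and was lost without ICV CD45.1 µ, without IV CD45.1 TAµ, without IV CD45.2 µ or without any one of the ITL libraries. The other 2 that rose against CTR µ were Siglec1, a sialic acid receptor, and Stab1. All 8 monocyte markers had a positive fitted log2 fold change in the transplant libraries against CTR µ, with a median of 2.17, against -0.07 over all genes. Fn1, which encodes fibronectin, was the 1 that rose (2.69 ± 0.67, adjusted p = 0.0475, edgeR). It was called in 11 of 19 alternatives, with adjusted p of up to 0.649, and not without ITL CD45.1 µ, without IV CD45.1 TAµ, without IV CD45.1 µ or without any one of the ICV transplant libraries. The summed level of the 8 was 99.9 to 1095 CPM in the transplant libraries, 533 CPM in PBS and 132 CPM in CTR µ, and 6 of the 8 were at 0 in IV CD45.2 µ. The part of either cell type in the Axl level was not tested.

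Mertk had its lowest mean in CD45.1 TAµ. It stood at 259, 420 and 424 CPM in the ITL, ICV and IV libraries of CD45.1 TAµ. It stood at 667, 489 and 561 CPM in those of CD45.2 µ, and at 446, 832 and 457 CPM in those of CD45.1 µ. All 3 CD45.1 TAµ libraries lay below all others of the layout. Against CD45.2 µ the fitted log2 fold change was -0.59 ± 0.24 (SE, adjusted p = 0.624, edgeR), and against CD45.1 µ it was -0.50 ± 0.24 (adjusted p = 0.874, edgeR). Groups that do not overlap in these directions were found for 4.78% and 6.33% of genes in these comparisons. With TMM scaling CD45.1 TAµ still lay below CD45.2 µ, at 276 to 479 CPM against 516 to 633 CPM, but overlapped CD45.1 µ. The high CD45.1 µ mean of 578 ± 220 CPM (SD, n = 3) rested on the ICV library, 1 of the 2 with the fewest genes. The summed level of 6 choroid plexus markers was 956 CPM in that library and at most 51.2 CPM in any other. The part of such tissue in its Mertk level was not tested. CD45.2 µ averaged 573 ± 89.6 CPM.

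The balance of the 2 receptors does not depend on how libraries are scaled. Axl made up 78.3%, 67.8% and 65.9% of the Axl and Mertk reads in the ITL, ICV and IV libraries of CD45.1 TAµ. The share was 27.0%, 59.2% and 41.0% in CD45.2 µ and 66.1%, 49.1% and 62.7% in CD45.1 µ. It was 68.5% in the PBS library and 4.10% in CTR µ (exact 95% interval 3.73% to 4.50%, counting error only). CTR µ thus had nearly all of its reads from Mertk, while the transplant libraries averaged 57.5% ± 15.8 from Axl (SD, n = 9). The share in CD45.2 µ was below that of CD45.1 TAµ in all libraries, without overlap, and overlapped that of CD45.1 µ. How often other pairs of genes separate these groups was not computed.

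**Figure D2:**
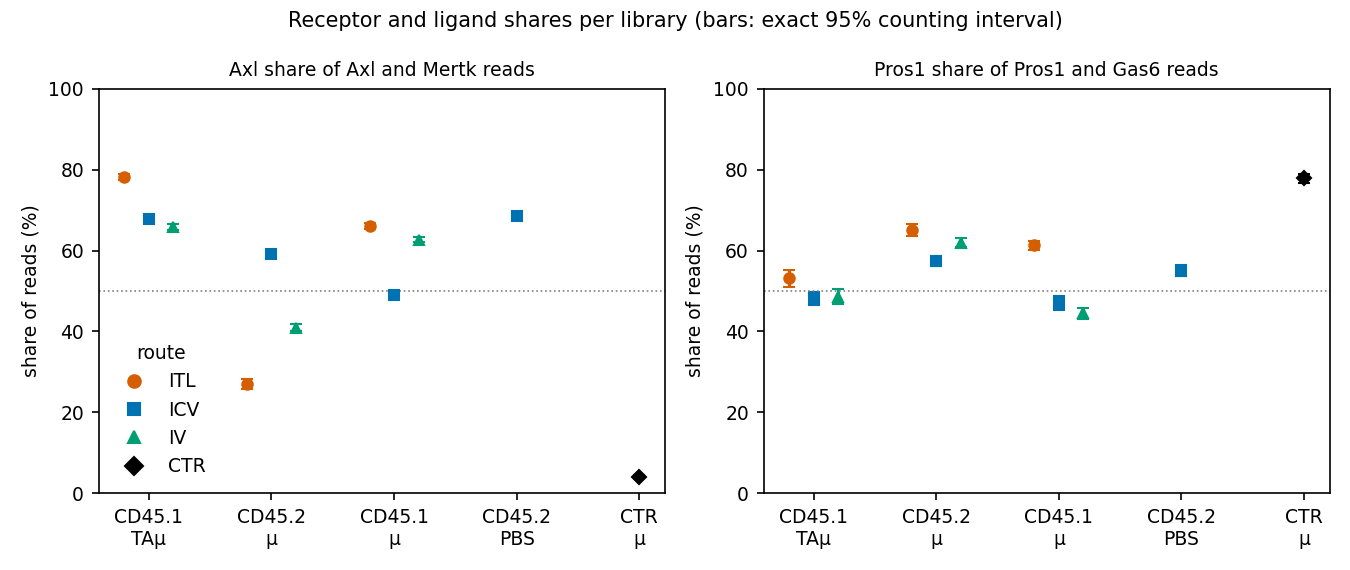
Share of Axl among Axl and Mertk reads (left) and of Pros1 among Pros1 and Gas6 reads (right), in percent, with 1 point per library and exact 95% counting intervals. CTR µ stands apart at 4.10% Axl and at 77.9% Pros1, and CD45.2 µ has the lowest Axl shares of the layout in its ITL and IV libraries.

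The ligand genes had their lowest means in CD45.1 TAµ, and Pros1 varied more than Gas6. Pros1, which encodes a cofactor of anticoagulation as well as a TAM ligand, stood at 124, 162 and 96.3 CPM in the ITL, ICV and IV libraries of CD45.1 TAµ. It stood at 420, 179 and 398 CPM in CD45.2 µ and at 416, 156 and 138 CPM in CD45.1 µ. Of the 9 libraries, 3 had 398 to 420 CPM, with CTR µ close by, and the others were at 96.3 to 179 CPM, as was the PBS library with 139 CPM. Against CD45.2 µ the log2 fold change of CD45.1 TAµ was -1.21 ± 0.36 (SE, unadjusted p = 0.0035, adjusted p = 0.247, edgeR), with lower levels in 3 of 3 routes and no overlap under either scaling, as was the case in this direction for 4.78% of genes on library totals. This call too depended on the settings, with adjusted p = 0.0474 in limma-voom and 0.0224 without ICV CD45.1 TAµ, among 20 alternatives with values of up to 1. CD45.2 µ against CD45.1 µ gave 0.62 ± 0.35 (adjusted p = 0.598, edgeR), and CD45.1 TAµ against CD45.1 µ gave -0.59 ± 0.36 (adjusted p = 0.874, edgeR).

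Gas6 stood at 109, 174 and 102 CPM in the ITL, ICV and IV libraries of CD45.1 TAµ. It stood at 226, 133 and 244 CPM in CD45.2 µ and at 262, 175 and 173 CPM in CD45.1 µ. All groups overlapped. The fitted log2 fold change was -0.52 ± 0.31 in CD45.1 TAµ against CD45.2 µ (SE, adjusted p = 0.839, edgeR), -0.50 ± 0.31 in CD45.1 TAµ against CD45.1 µ (adjusted p = 0.874, edgeR) and 0.02 ± 0.30 in CD45.2 µ against CD45.1 µ (adjusted p = 0.990, edgeR). Pros1 made up 53.1%, 48.2% and 48.6% of the ligand reads in CD45.1 TAµ, 65.0%, 57.4% and 62.0% in CD45.2 µ and 61.4%, 47.1% and 44.5% in CD45.1 µ. It made up 55.1% in the PBS library and 77.9% in CTR µ. All 3 CD45.2 µ shares lay above all 3 CD45.1 TAµ shares, and how often other pairs of genes do so was not computed.

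The summed level of homeostatic microglia markers was highest in the 4 libraries with the most Pros1. It was 17086, 8563 and 15261 CPM in the ITL, ICV and IV libraries of CD45.2 µ, and 15250, 9451 and 8256 CPM in those of CD45.1 µ. CD45.1 TAµ had 8492, 8883 and 5880 CPM, PBS had 5876 CPM and CTR µ had 24090 CPM. In CD45.1 TAµ against CD45.2 µ, 4 of the 10 fell (Sall1, P2ry12, Slc2a5 and Sparc), as did 36 of all 13339 genes tested. Against CTR µ all 10 were lower in the fit, with a median log2 fold change of -1.71, against -0.07 over all genes. Of 20 alternatives for the first comparison, Sall1 was called in 20, Slc2a5 in 19, Sparc in 13 and P2ry12 in 9. Sall1 alone fell without IV CD45.1 TAµ, and 2 of the 10 fell without IV CD45.2 µ, without ITL CD45.1 TAµ or without ICV CD45.1 µ. Their part in the levels of the ligands was not tested. Astrocytes also make Pros1 and Gas6. The summed level of 8 astrocyte markers was 61.0 to 244 CPM in CD45.1 TAµ, 233 to 624 CPM in CD45.2 µ, 129 to 279 CPM in CD45.1 µ, 49.7 CPM in PBS and 201 CPM in CTR µ. Slc1a3, a glutamate transporter, was the 1 that fell in CD45.1 TAµ against CD45.2 µ (log2 fold change -2.57 ± 0.53, adjusted p = 0.0473, edgeR). It was called in 9 of 20 alternatives, with adjusted p of up to 1, and the call was lost without any one library of the layout except ICV CD45.1 TAµ and ICV CD45.2 µ. Up to 2 of them were at 0 in a library, and their part in the ligand levels was not tested.

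**Figure D3:**
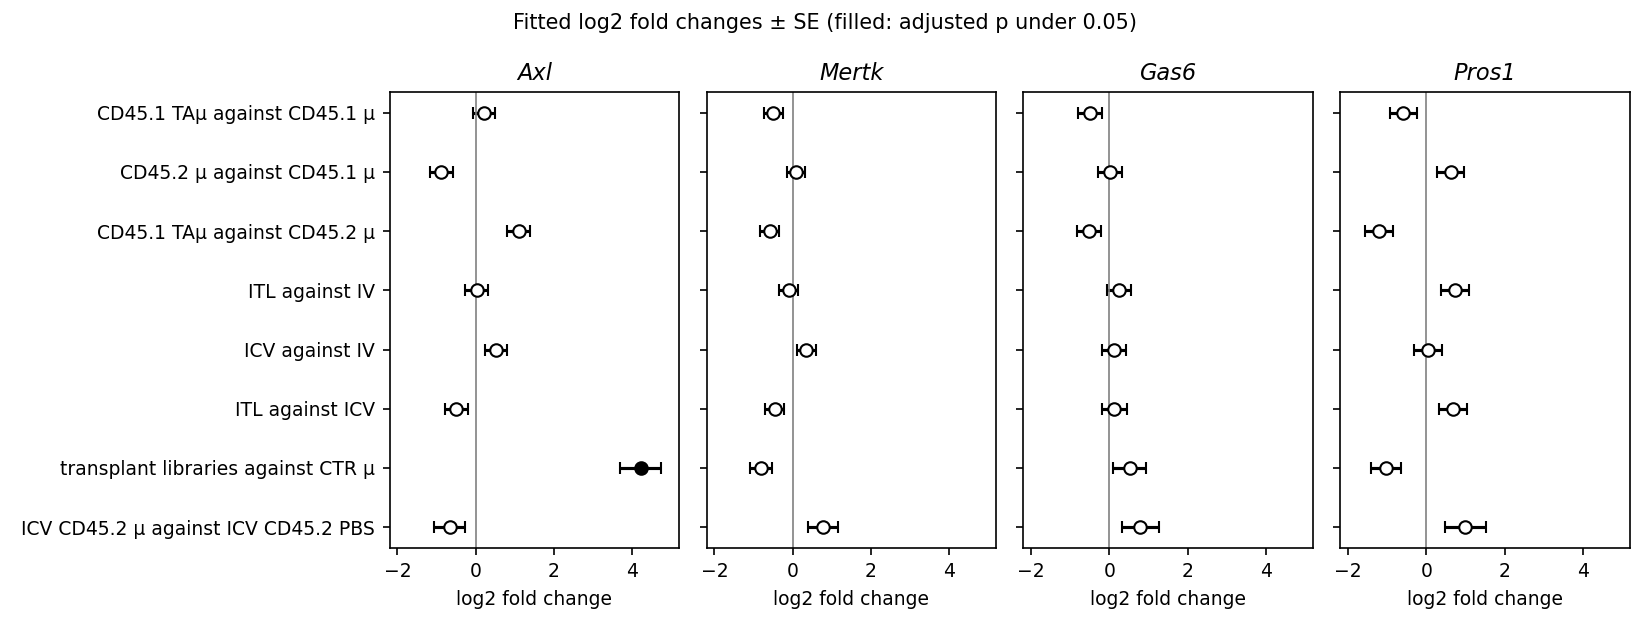
Fitted log2 fold changes (x axis) with SE for Axl, Mertk, Gas6 and Pros1 in 8 comparisons, given down the side. Filled points have an adjusted p under 0.05. Axl against CTR µ, at 4.22, is the 1 filled point.

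Delivery route moved none of the members past the threshold. ITL against IV called 0.217% of genes, and ICV against IV and ITL against ICV called 0% with edgeR, where 1230 and 506 genes had an unadjusted p under 0.05 and DESeq2 called 147 and 32. The widest route difference was that of Pros1, with a log2 fold change of 0.73 ± 0.35 in ITL against IV (SE, adjusted p = 0.914, edgeR), higher in 3 of 3 populations by log2 ratios of 0.08 to 1.59. With single libraries left out it was 0.30 to 1.25. In ITL against ICV it was 0.68 ± 0.35 (adjusted p = 0.998, edgeR), and in ICV against IV 0.05 ± 0.35. Axl had 0.52 ± 0.29 in ICV against IV (adjusted p = 0.588, edgeR) and -0.50 ± 0.29 in ITL against ICV (adjusted p = 0.998, edgeR). With single libraries left out the Axl values were 0.018 to 0.81 and -0.80 to -0.017. Mertk had 0.35 ± 0.24 and -0.46 ± 0.24 in the same comparisons (adjusted p = 0.652 and 0.998, edgeR). Axl and Mertk in ITL against IV, and Gas6 in all 3 route comparisons, had log2 fold changes between -0.10 and 0.24. For all members the libraries of every pair of routes overlapped. Among all genes, 4.74% were higher and 6.84% lower without overlap in ITL against IV, 3.06% and 7.01% in ICV against IV, and 6.47% and 3.28% in ITL against ICV.

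The PBS library was set against ICV CD45.2 µ, the library that shares its route and allele. Axl stood at 709 CPM in ICV CD45.2 µ and 874 CPM in PBS, a ratio of 0.811 (exact 95% counting interval 0.793 to 0.829). The ratio was 1.22 for Mertk, 1.17 for Gas6 and 1.29 for Pros1. With 1 library on each side these intervals cover counting error only. The fit, which takes the value of ICV CD45.2 µ from its route and its population over all 9 libraries, put the log2 fold changes at -0.66 ± 0.39 for Axl, 0.78 ± 0.38 for Mertk, 0.79 ± 0.48 for Gas6 and 0.99 ± 0.53 for Pros1 (SE, adjusted p = 1 for each, edgeR). Leaving out single libraries gave -1.51 to -0.44 for Axl, 0.58 to 1.18 for Mertk, 0.44 to 1.27 for Gas6 and 0.58 to 1.54 for Pros1. The fit called 0% of genes, with 377 at an unadjusted p under 0.05 and 147 called by DESeq2. PBS was within the range of the transplant libraries for Axl, Mertk, Gas6 and Pros1.

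Timd4 was at or near 0 in most libraries. It had 140 counts (10.8 CPM) in IV CD45.2 µ, 36 counts (3.29 CPM) in ITL CD45.1 µ and 15 counts (1.15 CPM) in CTR µ. IV CD45.1 TAµ had 3 counts and ICV CD45.1 TAµ had 1 count. The other 6 libraries had 0 counts, which allows levels of up to 0.141 to 0.49 CPM at their depths (3 counts, counting error only). It passed the filter on low counts through 2 libraries, so no fold change is given. Tyro3, the TAM receptor most associated with neurons, was as scarce, with 204 counts (17.1 CPM) in ICV CD45.1 TAµ, at most 58 counts in any other library and 0 counts in CTR µ, in the IV library of CD45.1 TAµ and in the ICV and IV libraries of CD45.1 µ.

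Gas6 and Pros1 varied together across the 9 transplant libraries (Pearson r = 0.88, Spearman rho = 0.83 of log2 CPM, n = 9), and without the 2 libraries farthest from the Gas6 median r was 0.81. Axl and Mertk had r = -0.50 (rho = -0.60), and r = -0.61 without the 2 libraries with the lowest Axl. Axl and Pros1 had r = -0.63, which became 0.13 without those libraries and so rests on the ITL and IV libraries of CD45.2 µ. These are descriptions over libraries that share routes, populations and a wide range of depths. They are 3 of 6 pairs of members computed.

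The genes most like each member were picked by Pearson r over the same libraries among 7822 candidates, so their r is high by choice. For Axl they were Apoe (r = 0.98), Timp2, a metalloproteinase inhibitor (0.98), Pf4, a chemokine of platelets and border macrophages (0.97), and Igf1, a growth factor (0.97). The 2 low CD45.2 µ libraries carry much of this: without them r was 0.86 for Apoe, 0.84 for Timp2, 0.58 for Pf4 and 0.71 for Igf1. Apoe stood at 4194 to 27280 CPM in the transplant libraries and at 530 CPM in CTR µ. Igf1 stood at 40.6 to 189 CPM and at 6.66 CPM in CTR µ. Timp2 and Pf4 in CTR µ, at 357 and 10.9 CPM, were level with their lowest transplant libraries, at 358 and 10.8 CPM.

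For Pros1 the genes were Cd81, a tetraspanin (r = 0.99), Lrp1, a receptor for lipoproteins and debris (0.97), Agmo, an ether lipid monooxygenase (0.97), and P2ry12, the purine receptor of homeostatic microglia (0.97). Without the 2 libraries farthest from the Pros1 median r stayed between 0.95 and 0.99. P2ry12 stood at 711 to 3328 CPM in the transplant libraries and at 4907 CPM in CTR µ. For Gas6 the genes were Ptp4a3, Ltc4s, Ckb and Plxnb2 (r = 0.97, 0.97, 0.96 and 0.95). For Mertk they were Srgap2, Kat6a, Pacs2 and Pacsin2 (r = 0.90, 0.90, 0.87 and 0.86), and without the 2 libraries farthest from the Mertk median r was 0.50 to 0.72.

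**Figure D4:**
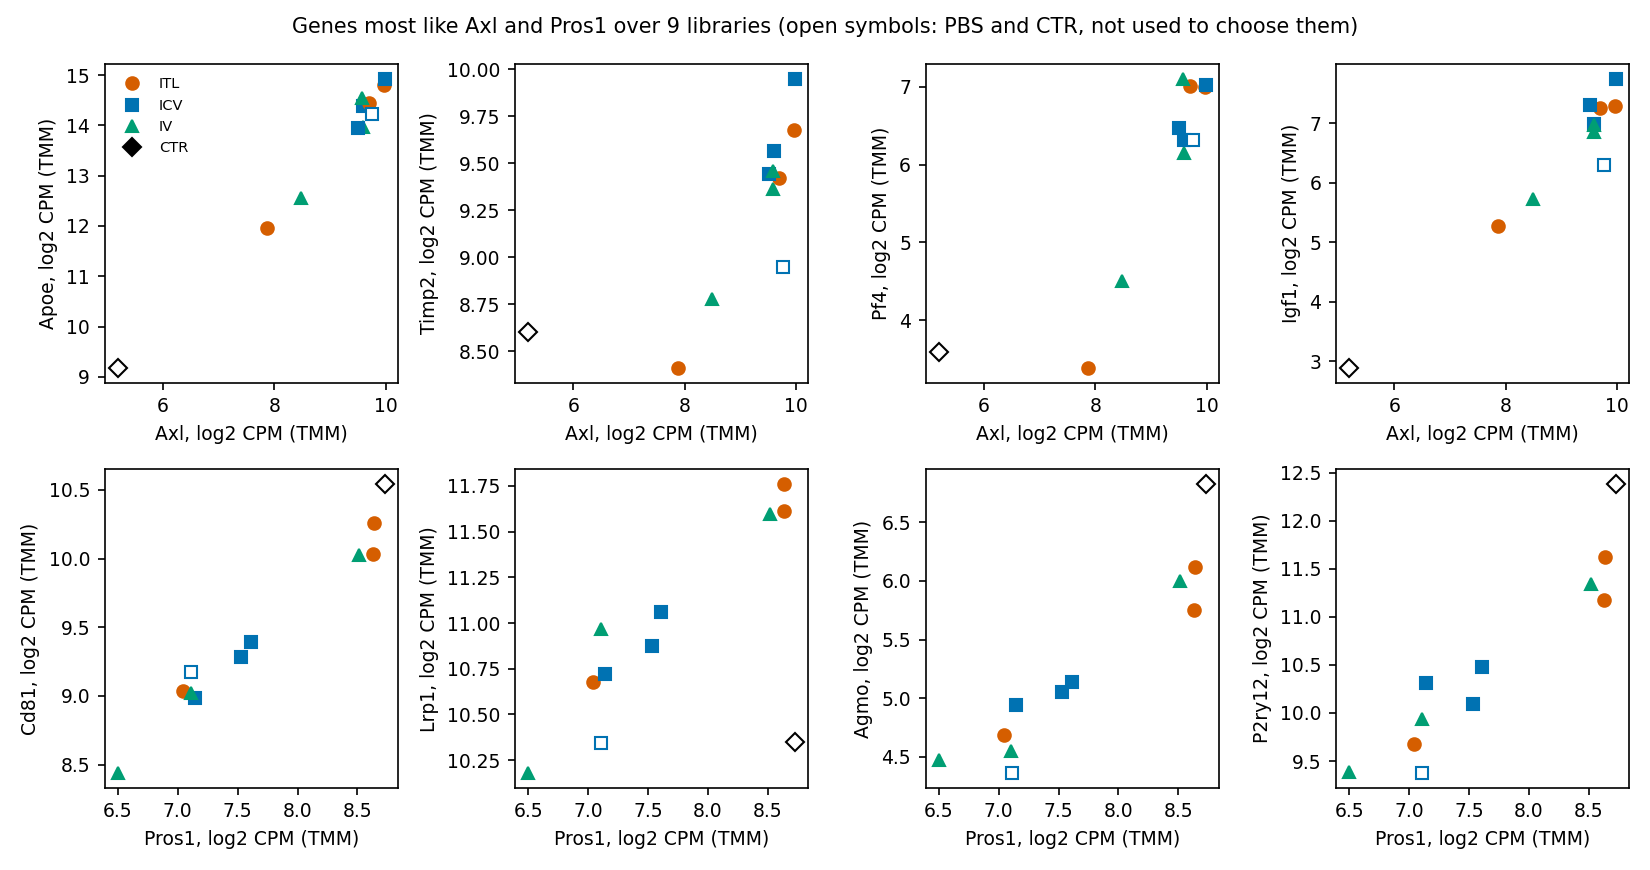
Log2 CPM (TMM) of the genes most like Axl (top row) and Pros1 (bottom row) against log2 CPM of Axl or Pros1, with 1 point per library. Filled symbols are the 9 transplant libraries that chose the genes, and open symbols are PBS and CTR µ. Apoe and Igf1 are low with Axl in CTR µ, and P2ry12 is high with Pros1.

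The wider pathway was read from 5 lists of genes. Of other phosphatidylserine receptors and bridging proteins, 21 of 22 genes were tested against CTR µ. On the fitted mean of the transplant libraries, Stab1 and Cd36 rose and Itgb3 fell. Itgb3 was nonetheless above CTR µ in the ITL and IV libraries of CD45.2 µ, at 91.1 and 132 CPM. Stab1, a scavenger receptor that binds phosphatidylserine and is also a border-associated macrophage marker, stood at 1252 to 3258 CPM in the transplant libraries and at 614 CPM in CTR µ (log2 fold change 1.68 ± 0.29, adjusted p = 0.00237, edgeR). Cd36, a scavenger receptor for oxidised lipid, stood at 37.4 to 187 CPM and at 15.8 CPM in CTR µ (2.31 ± 0.53, adjusted p = 0.0269). Itgb3, which pairs with Itgav to bind the bridging protein Mfge8, stood at 2.93 to 132 CPM and at 89.7 CPM in CTR µ (-2.49 ± 0.47, adjusted p = 0.00465). The median log2 fold change of the list was -0.20, against -0.07 over all genes.

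Itgb3 and Cd36 were also the list members that differed between CD45.1 TAµ and CD45.2 µ. Itgb3 stood at 7.46, 2.93 and 5.40 CPM in the ITL, ICV and IV libraries of CD45.1 TAµ, against 91.1, 19.8 and 132 CPM in CD45.2 µ (log2 fold change -3.81 ± 0.56, adjusted p = 0.00218, edgeR). Cd36 stood at 156, 94.2 and 187 CPM in CD45.1 TAµ, against 37.4, 47.6 and 55.2 CPM in CD45.2 µ (1.64 ± 0.31, adjusted p = 0.0232, edgeR). The groups do not overlap for either gene, and 6.29% of all genes were higher and 4.78% lower without overlap. Itgb3 was called in 19 of 20 alternatives, and without IV CD45.1 TAµ its adjusted p was 0.275. Cd36 was called in 13 of 20, and its adjusted p reached 0.405. The call was lost without ICV CD45.1 µ, without IV CD45.1 TAµ, without IV CD45.2 µ or without any one of the ITL libraries.

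Of 8 TAM partners and processing genes, Socs3, a cytokine signalling inhibitor that TAM receptors induce, fell against CTR µ (log2 fold change -1.29 ± 0.28, adjusted p = 0.018, edgeR). The other 7, among them Ggcx, the carboxylase that both ligands need, and Adam10 and Adam17, which shed the receptors, did not pass. Of 15 clearance and lipid response genes, Abca1, which exports cholesterol, rose (1.28 ± 0.28, adjusted p = 0.018, edgeR). Of 12 find-me and do-not-eat-me genes, Cx3cr1, the fractalkine receptor, fell (-0.97 ± 0.23, adjusted p = 0.0339, edgeR). None of 16 engulfment genes passed against CTR µ. Of the 19 alternatives for each, Stab1 was called in 19, Itgb3 in 18, Socs3 and Cd36 in 15, Abca1 in 13 and Cx3cr1 in 6. Without IV CD45.1 TAµ all of these calls but that of Stab1 were lost, with adjusted p over all alternatives of up to 0.0705 for Itgb3, 0.0761 for Socs3, 0.194 for Abca1, 0.261 for Cd36 and 0.328 for Cx3cr1. Without ITL CD45.1 TAµ or without ITL CD45.1 µ, the calls of Socs3, Abca1, Cd36 and Cx3cr1 were lost. Abca1 also lost its call without IV CD45.1 µ, and Cx3cr1 without any one transplant library except ICV CD45.1 TAµ. In the other 6 comparisons no gene of the 5 lists passed with edgeR, and the genes with the smallest p included Itgb3 in CD45.2 µ against CD45.1 µ (1.91 ± 0.46, adjusted p = 0.389).

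**Figure D5:**
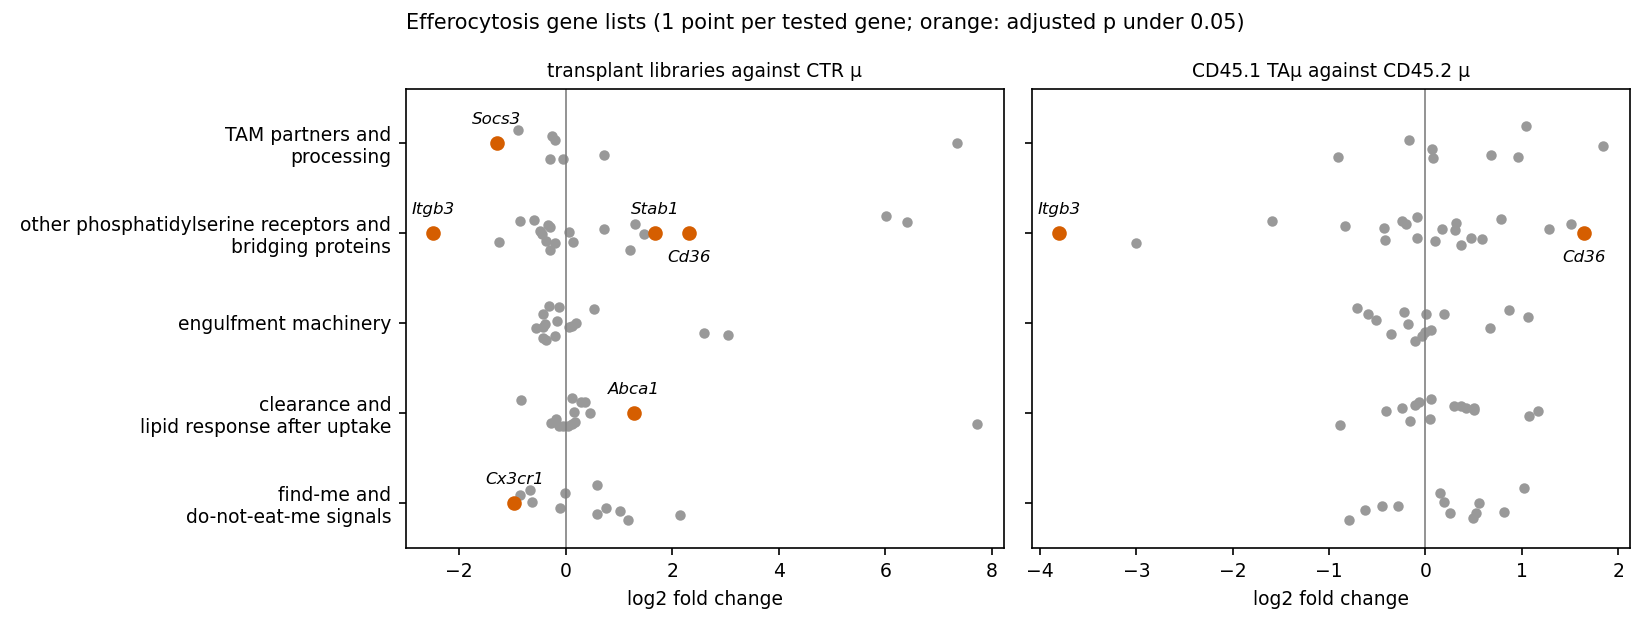
Fitted log2 fold changes (x axis) of each tested gene in 5 lists (rows), for the transplant libraries against CTR µ (left) and CD45.1 TAµ against CD45.2 µ (right). Orange points have an adjusted p under 0.05 and are named. The 4 grey points beyond 5 on the left are Tyro3, Stab2, Scarf1 and Pparg, which had 0 counts in CTR µ, so their fitted values depend on the prior count.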

How the data were processed

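The authors deposited 1 table of raw read counts by gene symbol for each library. STAR and the genome names mm39 and GRCm39 stand in the submitters' processing notes. Its version, the annotation and the strand setting were not stated. The tables held 0 columns of no sample.

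CPM are counts over the library total. The tests used R 4.3.3, edgeR 4.0.16 (quasi-likelihood F test, TMM, minimum count 10 and total 15, Benjamini-Hochberg adjustment over all tested genes at 0.05), limma 3.58.1 and DESeq2 1.42.0. An additive model of route and population was fitted to 9 libraries (13339 genes, 4 residual degrees of freedom). A fit of all 11 libraries (14766 genes) gave a term each to CTR µ and PBS, whose single libraries are assumed to vary like the others. SE is the absolute log2 fold change over the square root of F. With 1 library per combination, p-values measure the spread between libraries, and interactions could not be tested. The scripts were tested on simulated data. There, calls against the lone CTR µ library held a larger share of false ones than the other comparisons, so the position of CTR µ outside the range of the others is given too. Shares have exact (Clopper-Pearson) 95% intervals. Transcript lengths come from GENCODE vM21. Per library, 3 counts equal 0.141 to 0.49 CPM.

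The members and lists were chosen with earlier results of these data known. The text names all 5 members, up to 4 genes per list and comparison (those past the threshold by fold change, otherwise those with the smallest p), and the 4 genes most like each member among genes averaging at least 3 log2 CPM, predicted genes left out. Alternatives were other scalings, filters and tools, no block, all 11 libraries, and leaving out libraries.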

Additional observations from a re-analysis of the deposited data

Results flagged for a closer look

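Timd4 reached 10.8 CPM in IV CD45.2 µ, farther from the other 8 transplant libraries than Dixon's 95% limit allows, and Tyro3 likewise reached 17.1 CPM in ICV CD45.1 TAµ. For normally distributed values chance alone flags about 1 in 20 groups. Both genes had 0 counts in several transplant libraries, so that rate need not hold for them.

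Some members differed in opposite directions in different blocks by more than 0.5 on the log2 scale each way, with 1 library on each side and no test of the difference. Mertk in CD45.2 µ against CD45.1 µ had a log2 ratio of -0.77 with the ICV route and 0.58 with ITL. Gas6 in ICV against IV had 0.78 for CD45.1 TAµ and -0.88 for CD45.2 µ. Gas6 in ITL against ICV had -0.68 for CD45.1 TAµ and 0.76 for CD45.2 µ. Pros1 in ICV against IV had 0.75 for CD45.1 TAµ and -1.15 for CD45.2 µ.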

How the results depend on the processing

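The count of members called was the same under every alternative run in 7 of 8 comparisons, and Axl against CTR µ was called in all 19. In CD45.1 TAµ against CD45.2 µ, where edgeR called 0 members, DESeq2 called 1 (Axl) and limma-voom with quality weights called 2 (Axl and Pros1), and leaving out single libraries gave 0 to 1. The Axl and Pros1 shares averaged over the transplant libraries kept within their SD when each library was left out. A mean over this many libraries must do so, and the stability of the shares was therefore not tested by it. The fold change of a member changed sign only in comparisons where that member did not pass the threshold. With library totals alone, Gas6 in CD45.2 µ against CD45.1 µ became -0.012, Axl in ITL against IV -0.029, and in ICV against IV Gas6 became -0.010 and Pros1 -0.083. Limma-voom gave -0.22 for Gas6 in CD45.2 µ against CD45.1 µ. With no block for the other factor, that value was -1.2e-05, and Pros1 in ICV against IV was -0.20. Without the 2 libraries with the fewest genes, Axl in CD45.1 TAµ against CD45.1 µ became -0.045, Gas6 and Pros1 in CD45.2 µ against CD45.1 µ became -0.58 and -0.17, and Gas6 in ITL against ICV became -0.10. Leaving out each library gave ranges of -0.040 to 0.46 for Axl in CD45.1 TAµ against CD45.1 µ, -0.19 to 0.34 for Mertk and -0.28 to 0.28 for Gas6 in CD45.2 µ against CD45.1 µ. In ITL against IV they were -0.18 to 0.39 for Axl and -0.39 to 0.11 for Mertk, in ICV against IV -0.36 to 0.43 for Gas6 and -0.52 to 0.52 for Pros1, and in ITL against ICV -0.13 to 0.64 for Gas6. The causes were not tested. Library totals alone moved the median of all genes by up to 0.127 on the log2 scale. Counts of all genes called moved widely: 46 in CD45.1 TAµ against CD45.2 µ became 5 to 159 with a library left out and 22 to 193 under the other alternatives, 179 against CTR µ became 78 to 240 and 122 to 349, 29 in ITL against IV became 0 to 35 and 10 to 150, 10 in CD45.1 TAµ against CD45.1 µ became 0 to 24 and 2 to 217, and 4 in CD45.2 µ against CD45.1 µ became 0 to 29 and 0 to 277. Populations were compared with route as a block, and routes with population. No pairing by animal was possible because no animal or replicate number is given in the labels. Single libraries per combination and Timd4's few counts limit the precision.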
